A study of Mus musculus with 24 samples.

Results

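The comparison described here is that of fluoxetine with vehicle in the prefrontal cortex of mice heterozygous for a Dyrk1a allele. It used the 12 of the 24 libraries of the series that are labelled HT and either Fluoxetine or Vehicle, 6 per treatment, with 3 females and 3 males in each. All 12 came from C57BL/6J mice at postnatal day 40, and every animal in both arms carried the same genotype, Dyrk1a+/I48X, so the controls were heterozygous as well. The other 12 libraries, 6 from wild-type mice on vehicle and 6 from heterozygotes given lithium, served here to estimate the spread and to give levels side by side. The sources used here give no dose, route or length of treatment and do not say what the vehicle was. Female replicate 3 of the fluoxetine arm carried the batch label P40_L2, and the other 11 libraries carried P40_L1. The labels do not state that the libraries of an arm are separate animals, so p-values measure the spread between these libraries, which may be technical.

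Fluoxetine is a selective serotonin reuptake inhibitor. It blocks the serotonin transporter on the axons of raphe neurons, which project to the prefrontal cortex, and so raises extracellular serotonin there. Serotonin then acts on receptors of cortical neurons and glia, and chronic treatment is known for slow changes in neurotrophin signalling, plasticity genes and receptor sensitivity. DYRK1A is a dosage-sensitive protein kinase of neuronal growth and differentiation, and loss of 1 functional copy in humans causes a syndrome with intellectual disability and autistic features.

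The libraries held 24650372 to 35940460 reads assigned to genes. The labelled sex matched the expression of Xist and of Y-linked genes in 12 of 12 libraries. Markers of cortical layers were present in all 12, with summed normalised counts of 59037 to 81625 in the vehicle arm and 52647 to 84415 in the fluoxetine arm. The dissections were not uniform, however. Summed over 16 olfactory bulb markers, the level ran from 8254 to 41370 in the vehicle arm and from 7907 to 56872 in the fluoxetine arm, and it was highest in vehicle female 2, vehicle male 3, fluoxetine female 1 and fluoxetine male 1. Markers of striatal projection neurons ran from 13206 to 61353 in the vehicle arm and from 11422 to 24737 in the fluoxetine arm, with vehicle male 1 highest. Choroid plexus markers were highest in vehicle female 1, at 12089 against 5215 to 7794 in the other 11 libraries.

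Dyrk1a itself was measured in every library. In the vehicle arm its level ran from 2254 to 2431 normalised counts with a median of 2365, and in the fluoxetine arm from 2353 to 2589 with a median of 2457. The arms overlapped, and 5 of 6 fluoxetine libraries lay above the vehicle mean. The means were 2355 ± 61.2 (SD, n = 6) on vehicle and 2476 ± 97.5 (SD, n = 6) on fluoxetine, and a 2-sided exact permutation test over all arrangements of the 12 libraries gave p = 0.0325. In the fit across all genes the difference was 0.07 ± 0.04 (log2, SE) with a limma adjusted p of 0.916, so it was not called there. Since both arms carry the allele, these values do not check the genotype labels. All 9 tested members of a list of DYRK and CLK kinases and their partner Dcaf7 were higher on fluoxetine, with a median log2 difference of 0.09. In females 9 were higher, and in males 7 were higher and 2 lower. At an unadjusted p under 0.05, 1 was higher, the splicing-factor kinase Clk3, against 2.66% of all genes.

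Fluoxetine was associated with few differences that held at the level of single genes. Of 16825 genes tested with limma, 2 were called at a Benjamini-Hochberg adjusted p under 0.05, which is 0.0119% of the genes. The gene for a collagen prolyl hydroxylase, P4ha1, rose, and the gene for a core subunit of respiratory complex I, Ndufs3, fell, each being 0.00594% of the genes tested. An unadjusted p under 0.05 was reached by 961 genes (5.71%), of which 448 (2.66%) were higher and 513 (3.05%) lower. The 6 fluoxetine libraries all lay above the 6 vehicle libraries in 42 genes (0.25%) and all below them in 37 (0.22%). The median log2 difference over all genes was 0.00, with 8333 genes (49.5%) higher and 8492 (50.5%) lower. edgeR's quasi-likelihood test on the reads recovered from the table called the same 2 genes. DESeq2 on those reads called 16 genes (0.0951%) at an adjusted p under 0.05, of which 7 were higher (0.0416%) and 9 lower (0.0535%). Besides the 2 above these were Per2, Zfp667, Spred2, Klf4, Cbll1 and Nr4a3 among the higher, and Klf11, Ndufb1-ps, Ndufa4, Cox7b, Rpl41, Naa38, 2410015M20Rik and Ndufb6 among the lower.

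P4ha1 encodes a catalytic alpha subunit of the prolyl 4-hydroxylase of the endoplasmic reticulum, which hydroxylates proline in collagen chains, and it is a known target of hypoxia-inducible factor. The gene lies on the plus strand at chr10:59323296-59373304 (GRCm38). Its level in the vehicle arm was 903, 896 and 994 normalised counts in females and 870, 980 and 925 in males. In the fluoxetine arm it was 1110, 1135 and 1162 in females and 1163, 1201 and 1144 in males. Every fluoxetine library lay above every vehicle library, and the 2 sexes gave the same picture. The means were 928 ± 48.9 (SD, n = 6) and 1153 ± 30.9 (SD, n = 6), a difference of 24.2%. On the log2 scale this was 0.31 ± 0.05 (SE), with a limma adjusted p of 0.0233. The call rests on the shared estimate of the spread: in a fit of the 12 libraries alone, with sex as a block, the limma adjusted p was 0.091, and leaving out any of 9 of the 12 libraries in turn moved it above 0.05, over a range of 0.0171 to 0.116. With a batch term the limma adjusted p was 0.0658, also above 0.05. Fluoxetine female 3, alone in its batch in these arms, sets that term by itself. That fit thus amounts to leaving fluoxetine female 3 out and is not a separate check. The difference itself stayed between 0.29 and 0.34 when each library was left out.

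The bases before the start of P4ha1 are shown because this gene was the 1 called upward and belongs to the hypoxia list. They are chr10:59323046-59323295, plus strand, from RefSeq (GRCm38.p6). Capitals mark the core of a hypoxia response element, searched as ACGTG on both strands and found here on the minus strand.
P4ha1: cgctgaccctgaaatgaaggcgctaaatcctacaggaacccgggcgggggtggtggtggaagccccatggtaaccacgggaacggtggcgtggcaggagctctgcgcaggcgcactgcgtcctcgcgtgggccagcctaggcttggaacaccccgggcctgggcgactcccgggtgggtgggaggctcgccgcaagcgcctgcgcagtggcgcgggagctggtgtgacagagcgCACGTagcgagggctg
The letters ACGTG also lie inside the E-box CACGTG, and they occurred in 16.6% of all RefSeq promoter windows of the same 250 bases. Of the 23 members of the hypoxia and glycolysis list with a promoter entry, 17 held them in at least 1 window, against 18.5% of all genes. A match describes the sequence only.

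The list of hypoxia-inducible and glycolytic genes, which includes P4ha1, gave a mixed picture. Of 26 listed members 25 were tested, 16 were higher and 9 lower, and the median log2 difference was 0.05. In females the median was -0.03, with 11 higher and 14 lower, and in males 0.07, with 20 higher and 5 lower. At an unadjusted p under 0.05, 4 were higher, P4ha1 among them, and 0 lower, against 2.66% and 3.05% of all genes. After P4ha1 the smallest p belonged to Slc2a1, the glucose transporter GLUT1 of the blood-brain barrier and astrocytes, with 2735 ± 361 normalised counts on vehicle and 3468 ± 321 on fluoxetine (SD, n = 6 each). The values for Slc2a1 ran from 2218 to 3274 in the vehicle arm, with a median of 2679, and from 2875 to 3769 in the fluoxetine arm, with a median of 3498. The arms overlapped, although all 6 fluoxetine libraries lay above the vehicle mean, and the limma adjusted p was 0.546. Pfkfb3, which makes the activator of phosphofructokinase, differed by 0.14 ± 0.05 and Mxi1, a MYC antagonist, by 0.17 ± 0.06 (log2, SE), and neither was called. Of the 22 collagen and collagen-modifying genes 17 were higher, with a median of 0.08, or 0.02 without the 4 libraries highest in bulb markers. P4ha1 was the only member of the collagen list with an unadjusted p under 0.05, and its paralogue P4ha2 differed by 0.16 ± 0.09.

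Ndufs3 encodes a core subunit of the matrix arm of NADH dehydrogenase, the entry point of electrons into the respiratory chain. It lies on the minus strand at chr2:90894634-90904827 (GRCm38). Its level was 2305, 2286 and 2283 normalised counts in vehicle females and 2467, 2347 and 2266 in vehicle males. In the fluoxetine arm it was 1945, 1863 and 2058 in females and 2012, 1963 and 2046 in males. The arms did not overlap. The means were 2326 ± 74.8 and 1981 ± 73.3 (SD, n = 6 each). The log2 change was -0.23 ± 0.04 (SE), with a limma adjusted p of 0.0251 and the same value of -0.23 in each sex. With only the 12 libraries the limma adjusted p was 0.283, and it passed 0.05 without any of 10 of the 12 libraries in turn (0.0359 to 0.136 over all 12). Kbtbd4 overlaps Ndufs3 on the opposite strand, and the sources used here do not say whether the counting used strand. Kbtbd4 had 761 normalised counts on vehicle and 762 on fluoxetine.

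**Figure D1:**
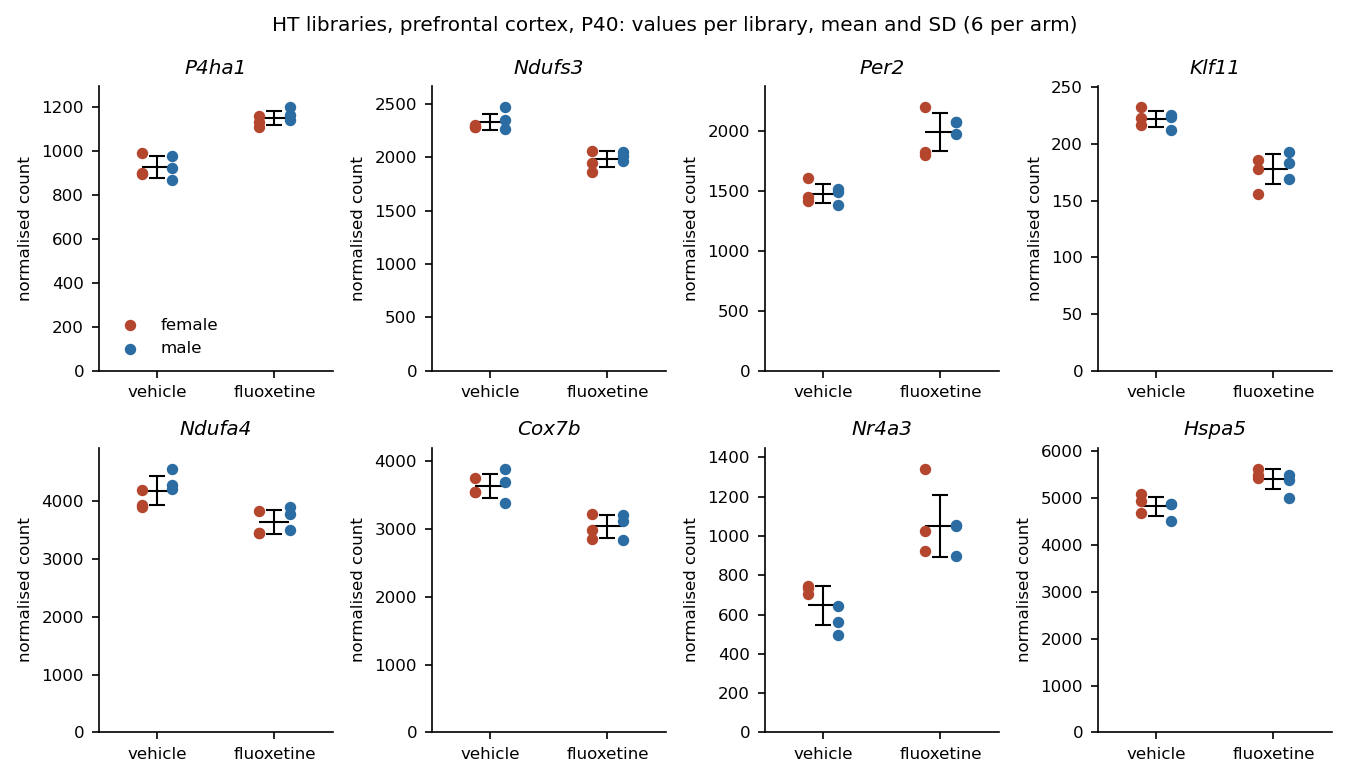
Normalised counts of 8 genes in the 12 HT libraries, vehicle on the left and fluoxetine on the right of each panel, with females in red, males in blue, and the mean and SD of 6 libraries in black. P4ha1, Ndufs3, Per2, Klf11, Ndufa4, Cox7b and Nr4a3 show no overlap between the arms, while Hspa5 overlaps.

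The rest of complex I lay on the same side as Ndufs3. Of its 37 nuclear-encoded subunit genes, all tested, 36 were lower on fluoxetine and 1 was higher, with a median log2 difference of -0.12 against 0.00 over all genes. An unadjusted p under 0.05 was reached by 16 of the 37, all lower, against 3.05% of all genes, and Ndufs3 alone was called. In 4 of the 37 every fluoxetine library lay below every vehicle library, against 0.22% of all genes: Ndufs3, Ndufb1-ps, Ndufb6 and Ndufa3, the last named after its values were seen. The list was chosen with earlier results of these libraries known, so its count is not independent evidence of its direction. The sums over the list ran from 60326 to 66668 normalised counts in the fluoxetine arm, with a median of 62891, and from 63385 to 74158 in the vehicle arm, with a median of 68325, so the arms overlapped.

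Ndufb6, an accessory subunit of the membrane arm, had 962 ± 36.3 normalised counts on vehicle and 831 ± 36.8 on fluoxetine (SD, n = 6 each). Its log2 change was -0.21 ± 0.05 with a limma adjusted p of 0.347. Ndufb1-ps, which the annotation lists as a non-coding RNA although the name refers to a subunit gene, had 1104 ± 36.7 on vehicle and 928.5 ± 87.5 on fluoxetine. Both overlap a gene on the other strand, Smim27 and Cpsf2 respectively. Ndufs6 and Ndufa1 followed at -0.26 ± 0.07 and -0.37 ± 0.10 (log2, SE), and neither was called by any of the 3 tools. The vehicle value of Ndufa1 was highest in vehicle male 1, at 1818 against 1422 in the next library. Of the 15 tested factors that assemble complex I but are not part of it, 8 were lower, and the median over the 15 was 0.00. At an unadjusted p under 0.05, 2 were lower, against 3.05% of all genes.

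Complexes III, IV and V showed the same direction. All 9 genes of complex III, which passes electrons to cytochrome c, were lower, 4 at an unadjusted p under 0.05 against 3.05% of all genes, with a median of -0.09. Of 12 genes of complex IV, the oxidase that reduces oxygen, 11 were lower, 5 at an unadjusted p under 0.05, with a median of -0.15. All 16 ATP synthase genes were lower, 5 at an unadjusted p under 0.05, with a median of -0.08. None of these was called by limma, against 0.0119% of all genes. Complex II, which also belongs to the TCA cycle, had a median of -0.05 over 4 genes, none with an unadjusted p under 0.05.

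In complex IV the smallest p belonged to Ndufa4, a subunit once assigned to complex I. Its level ran from 3903 to 4568 normalised counts in the vehicle arm, with a median of 4208, and from 3448 to 3900 in the fluoxetine arm, with a median of 3637. Cox7b ran from 3389 to 3894 on vehicle (median 3623) and from 2847 to 3230 on fluoxetine (median 3055). Neither gene overlapped between the arms, although Ndufa4 was separated by only a few counts. The log2 changes were -0.20 ± 0.04 for Ndufa4 and -0.26 ± 0.06 for Cox7b (SE), with limma adjusted p of 0.255 and 0.343. DESeq2 called both, with adjusted p of 0.00201 and 0.0214. Atp5e, the epsilon subunit of ATP synthase, had 1089 ± 59.4 on vehicle and 921 ± 81.6 on fluoxetine without overlap, and its limma adjusted p was 0.506. Uqcrq and Uqcrh of complex III differed by -0.29 ± 0.07 and -0.16 ± 0.05. The TCA cycle enzymes, the other arm of mitochondrial energy metabolism, were split into 9 higher and 9 lower with a median of -0.01.

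Transcript length moved with these results. Most respiratory chain subunits are small proteins with short mRNAs: the median transcript length was 810 nt for complex I and 535 nt for complex III. Among 911 genes with a transcript length under 1000 nt that belong to none of the mitochondrial and ribosome lists, the median log2 difference was -0.06, 68.4% were lower, and 10.1% were lower at an unadjusted p under 0.05. Genes of 1000 to 2000 nt outside those lists had a median of -0.02, and longer genes lay between 0.01 and 0.02. Within complex I the 24 genes under 1000 nt had a median of -0.13 and the 12 longer ones -0.07. For ATP synthase the 2 medians were -0.12 and -0.02, for complex III -0.21 and -0.07, and for complex IV -0.15 and -0.18, the last over 2 genes. The part of transcript length in the result was not tested. The mean log2 deviation of the short genes outside the lists ran from -0.03 to 0.07 in the vehicle libraries and from -0.12 to 0.09 in the fluoxetine libraries, with fluoxetine female 2 lowest and fluoxetine male 1 highest.

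**Figure D2:**
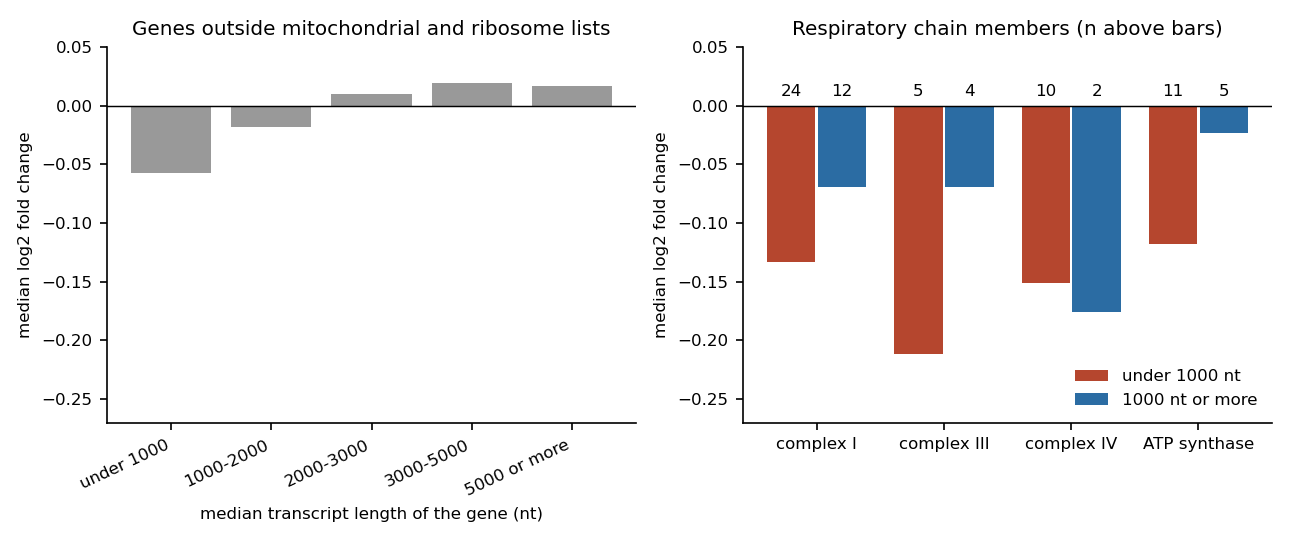
Left, median log2 fold change (fluoxetine minus vehicle) of genes outside the mitochondrial and ribosome lists by transcript length, from -0.06 under 1000 nt to 0.02 in the longest genes. Right, the same for respiratory chain genes under 1000 nt (red) and of 1000 nt or more (blue), with the number of genes above each bar; the complex I bars reach -0.13 and -0.07.

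The respiratory genes on the mitochondrial genome were divided. Of 13 protein-coding mitochondrial transcripts 9 were higher and 4 lower, with a median of 0.04. That median ran from -0.03 (without fluoxetine male 3) to 0.13 (without fluoxetine male 1) when each library was left out and was also below 0 without vehicle male 1. In the mean over the 13 genes 5 of 6 fluoxetine libraries lay below the vehicle mean, and their summed level was 1501862 ± 144670 on vehicle and 1509309 ± 196740 on fluoxetine (SD, n = 6 each). The exception in size was mt-Co2, a core subunit of complex IV. In the vehicle arm it ran from 99082 to 118964 normalised counts with a median of 112337, and in the fluoxetine arm from 32459 to 87185 with a median of 53898. These arms did not overlap, and the log2 difference was -1.06 ± 0.29 with a limma adjusted p of 0.546. The value for mt-Co2 is uncertain, because the table also holds Gm28661, a nuclear copy on chromosome 1 that shares 651 of the 654 stretches of 31 bases of the mt-Co2 transcript. Together with a lesser copy, Gm13341, this copy had 112648 ± 16264 normalised counts on vehicle and 171999 ± 53988 on fluoxetine. The sum of mt-Co2 and its copies was 223282 ± 18115 on vehicle and 229631 ± 33882 on fluoxetine, with overlapping arms. The sum thus differed by less than its spread between libraries. Such copies exist in the table for 5 of the 13 genes, and adding them turned the sign of 4. Without and with the copies, the log2 difference was -1.06 and 0.03 for mt-Co2, -0.58 and 0.71 for mt-Nd3, 0.07 and -0.01 for mt-Nd4l, and 0.45 and -0.02 for mt-Co3, so single values of these genes are uncertain.

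**Figure D3:**
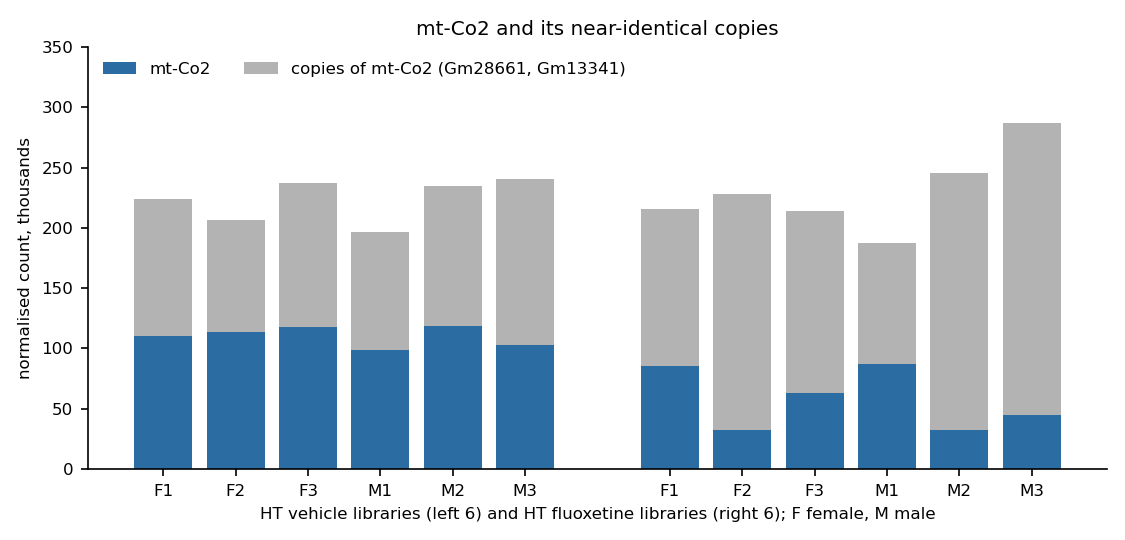
Normalised counts, divided by 1000 on the axis, of mt-Co2 (blue) and of its copies Gm28661 and Gm13341 (grey) stacked for each library, with 6 vehicle bars on the left and 6 fluoxetine bars on the right. The blue part is smaller in all 6 fluoxetine libraries, while the full bars cover 196588 to 240563 counts on vehicle and 187676 to 286855 on fluoxetine.

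Genes of the translation machinery were also mostly lower. Of 46 genes for proteins of the large cytosolic ribosomal subunit 40 were lower, 12 at an unadjusted p under 0.05 against 3.05% of all genes, with a median of -0.08. Of 32 genes of the small subunit 28 were lower, 5 at an unadjusted p under 0.05, with a median of -0.09. Without fluoxetine female 2 these medians were -0.05 and -0.04, and without fluoxetine female 1 they were -0.13 and -0.15. The small-subunit median was also -0.14 without fluoxetine male 1 or vehicle male 2 and -0.06 without fluoxetine male 3. Rpl41 had the smallest p, with a range of 5167 to 6536 normalised counts on vehicle (median 5609) and 3969 to 5114 on fluoxetine (median 4699). Its arms did not overlap, and the log2 change of -0.29 ± 0.06 had a limma adjusted p of 0.343. Rpl36a and Rpl38 differed by -0.31 ± 0.08 and -0.28 ± 0.08, with their highest vehicle values in vehicle male 1. Ribosomal protein genes have many processed copies in the genome among which counting can split reads, so single values here are uncertain. These transcripts too are short, with 33 of the 46 large-subunit genes under 1000 nt at a median of -0.10 and the other 13 at -0.06, and the part of length was not tested. In scores per library the lists spread widely within the fluoxetine arm, from -0.24 to 0.12 for the large subunit, and 4 of 6 fluoxetine libraries lay below the vehicle mean.

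Mitochondrial ribosomal proteins, encoded in the nucleus, were lower in 59 of 78 genes, with a median of -0.05 (-0.03 without fluoxetine male 1) and 7 lower at an unadjusted p under 0.05, against 3.05% of all genes. Mrpl33 had 393 ± 17.4 normalised counts on vehicle and 353 ± 12.8 on fluoxetine (SD, n = 6 each) without overlap, at a limma adjusted p of 0.679. Components of the import channels of both mitochondrial membranes were lower in 18 of 24, among them Tomm7 (-0.24 ± 0.07), Timm8b (-0.26 ± 0.07) and Timm13 (-0.17 ± 0.06), with 5 at an unadjusted p under 0.05. The 9 import genes with short transcripts had a median of -0.12 and the 15 longer ones -0.01. Of 31 proteasome subunits, 21 were lower with a median of -0.02, and 1, Psma6, had an unadjusted p under 0.05, a share near that of all genes.

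**Figure D4:**
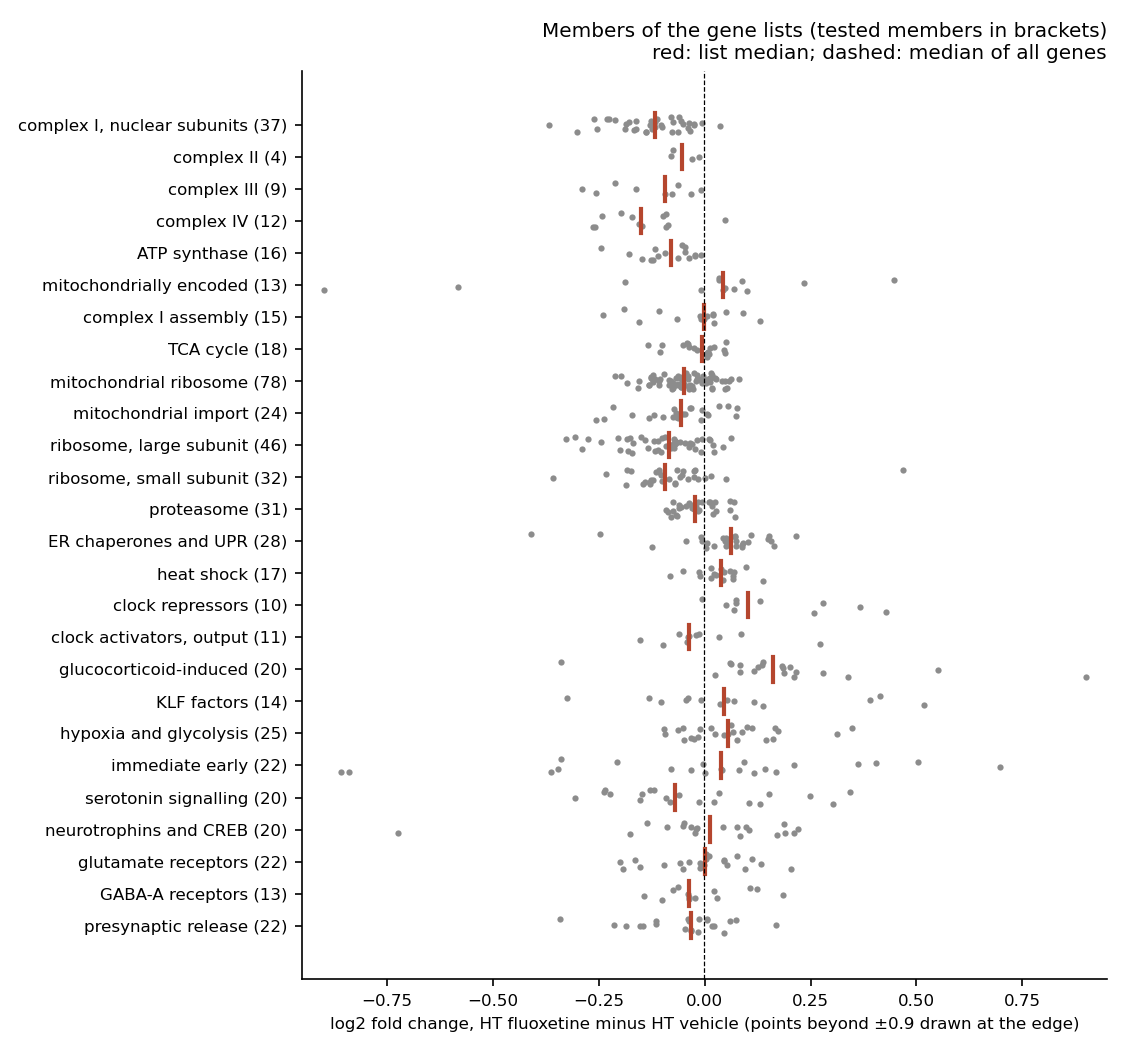
Log2 fold change (fluoxetine minus vehicle) of every tested member of 26 gene lists, 1 grey point per gene, with the list median in red and the median of all genes as a dashed line; points beyond 0.9 in size are drawn at the edge. Complex I to ATP synthase sit to the left of the line, clock repressors and glucocorticoid-induced genes to the right.

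The repressor limb of the circadian clock was higher on fluoxetine. PER and CRY proteins close the core loop by inhibiting the activators CLOCK and BMAL1, and BHLHE40 and BHLHE41 compete for the same E-box elements. Of 10 genes 9 were higher, with a median log2 difference of 0.10, and 4 were higher at an unadjusted p under 0.05, against 2.66% of all genes. In 2 of the 10, Per2 and Bhlhe40, the arms did not overlap, against 0.25% of all genes. Per2 measured 1449, 1415 and 1610 normalised counts in vehicle females and 1519, 1486 and 1381 in vehicle males. Under fluoxetine Per2 measured 1824, 2197 and 1797 in females and 2076, 2077 and 1977 in males. The lowest Per2 value on fluoxetine thus exceeded the highest on vehicle in both sexes. The log2 difference was 0.43 ± 0.08, a difference of 34.8%, with a limma adjusted p of 0.217 and a DESeq2 adjusted p of 0.00368.

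Bhlhe40 had 3059 ± 240 normalised counts on vehicle and 3949 ± 384 on fluoxetine (SD, n = 6 each), with a limma adjusted p of 0.569, and a non-coding gene overlaps it on the other strand. Per1, which light and glucocorticoids both induce, had 3791 ± 516 and 4574 ± 365, with overlap. Cry1 had 437.6 ± 34.9 and 527 ± 81.1, also with overlap. None of these 4 was called by limma. The activators and output factors of the clock did not show the converse: 3 of 11 were higher, their median was -0.04, and none reached an unadjusted p under 0.05. The sources used here do not give the hour at which tissue was taken.

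The sequence before Cry1, chr10:85185055-85185304, minus strand, RefSeq (GRCm38.p6), is shown as an example of the element these repressors act on. Capitals mark the E-box, searched as CACGTG, which reads the same on both strands.
Cry1: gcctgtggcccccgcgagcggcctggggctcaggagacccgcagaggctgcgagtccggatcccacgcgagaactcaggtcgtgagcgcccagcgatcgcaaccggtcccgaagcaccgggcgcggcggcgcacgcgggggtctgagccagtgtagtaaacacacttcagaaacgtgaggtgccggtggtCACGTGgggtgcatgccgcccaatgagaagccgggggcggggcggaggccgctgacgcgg
Of the 8 clock repressor genes with a promoter entry, 4 held an E-box in at least 1 window of 250 bases, Per1, Cry1, Bhlhe41 and Ciart, against 6.86% of all genes. Per2 and Bhlhe40, whose arms did not overlap, had no promoter entry and were not searched. These matches too describe the sequence only.

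Glucocorticoid-induced genes, a list that includes Per1, were higher in 19 of 20, with a median of 0.16. At an unadjusted p under 0.05, 2 were higher, against 2.66% of all genes. The 2 were Per1 and Errfi1, a feedback inhibitor of EGF receptor signalling. The list's summed level ran from 21556 to 24906 normalised counts on vehicle and from 24149 to 27693 on fluoxetine. In females its median was 0.07, with 12 genes higher and 8 lower, and in males 0.27, with 19 higher and 1 lower. Kruppel-like factors, zinc finger proteins that bind GC-rich promoters, moved in both directions, with 8 of 14 higher. Klf11 ran from 212 to 232 normalised counts on vehicle (median 223) and from 156 to 193 on fluoxetine (median 180), without overlap. Klf4 ran from 159 to 239 on vehicle (median 188) and from 231 to 361 on fluoxetine (median 257), with fluoxetine male 1 apart at the top. The log2 changes were -0.32 ± 0.06 for Klf11 and 0.52 ± 0.11 for Klf4 (SE), with limma adjusted p of 0.217 and 0.343, and DESeq2 called both. Klf2, a factor of quiescent endothelium, and Klf10 differed by 0.39 ± 0.11 and 0.41 ± 0.14.

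Chaperones of the endoplasmic reticulum were mostly higher. The unfolded protein response matches folding capacity to load through the sensors IRE1, PERK and ATF6, and the factors XBP1 and ATF6 raise chaperone transcription. Of 28 genes 22 were higher with a median of 0.06, and 5 were higher and 1 lower at an unadjusted p under 0.05, against 2.66% and 3.05% of all genes. The 5 were Xbp1, Hspa5, Pdia4, Pdia6 and Calr. The 1 lower was Chac1 (-0.25), a glutathione-degrading enzyme gene of the stress output, and Trib3 (-0.41) and Ppp1r15a (-0.12) of that output also had lower values. Of the sensors in the list, the IRE1 gene Ern1 differed by 0.15 and Atf6 by -0.04. Trib3, Ppp1r15a, Ern1 and Atf6 were named after their values were seen. Hspa5, the chaperone BiP, ran from 4509 to 5081 normalised counts on vehicle (median 4864) and from 4992 to 5624 on fluoxetine (median 5460). All 6 fluoxetine libraries lay above the vehicle mean, and only fluoxetine male 3 fell inside the vehicle range. The log2 difference was 0.16 ± 0.04 with a limma adjusted p of 0.546. Xbp1 had 1433 ± 63.7 on vehicle and 1591 ± 54.2 on fluoxetine, and the disulfide isomerase gene Pdia4 had 707 ± 43.4 and 822 ± 57.2 (SD, n = 6 each), both with overlap. None of the 28 was called by limma. The sums over the list were 58588 to 64210 on vehicle and 60645 to 69361 on fluoxetine. The cytosolic heat shock chaperones were less uniform, with 13 of 17 higher, a median of 0.04 and 0 at an unadjusted p under 0.05.

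The windows before Hspa5 and Pdia6 are shown because they hold the endoplasmic reticulum stress element that ATF6 and XBP1 are known to use. Both come from RefSeq (GRCm38.p6), plus strand, at chr2:34771840-34772089 and chr12:17266339-17266588. Capitals mark matches to the element, searched on both strands as CCAAT and CCACG with 9 bases of any kind between them.
Hspa5: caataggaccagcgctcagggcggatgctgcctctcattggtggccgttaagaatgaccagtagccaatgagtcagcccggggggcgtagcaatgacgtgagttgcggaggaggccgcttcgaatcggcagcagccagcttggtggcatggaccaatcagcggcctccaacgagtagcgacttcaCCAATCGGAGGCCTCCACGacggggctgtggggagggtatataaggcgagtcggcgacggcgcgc
Pdia6: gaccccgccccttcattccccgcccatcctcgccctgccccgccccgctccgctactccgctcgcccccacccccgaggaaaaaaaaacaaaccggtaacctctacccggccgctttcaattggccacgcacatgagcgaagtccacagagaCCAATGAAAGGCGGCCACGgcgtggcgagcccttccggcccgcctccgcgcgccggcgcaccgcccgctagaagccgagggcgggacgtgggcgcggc
The element occurred in 0.113% of all windows. Of 25 list members with a promoter entry 8 held it in at least 1 window, against 0.13% of all genes: Hspa5, Hsp90b1, Calr, Canx, Pdia6, Dnajc3, Creld2 and Syvn1. No match was found in the windows of Pdia4 and Xbp1. Here too a match describes the sequence only, and its relation to the differences on fluoxetine was not tested.

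No gene of the serotonin system was called. Slc6a4, which encodes the transporter that fluoxetine blocks, was not analysed here. Of 22 listed serotonin genes 20 were tested, 8 were higher and 12 lower, the median was -0.07 (0.01 without fluoxetine male 1 and 0.00 without vehicle male 1), and 0 had an unadjusted p under 0.05. Htr1a, an inhibitory receptor, ran from 386 to 826 normalised counts on vehicle (median 624) and from 242 to 694 on fluoxetine (median 561). Htr2a, the main excitatory receptor of cortical pyramidal cells, ran from 1223 to 1821 (median 1499) and from 936 to 1679 (median 1496). The arms overlapped widely for both, with log2 differences of -0.22 ± 0.27 and -0.12 ± 0.15 (SE), so changes of that size could not be resolved. Maoa, the monoamine oxidase that degrades serotonin, was held more tightly at 0.02 ± 0.05. Each of these 3 signs turned when 1 library was left out, vehicle male 1 for Maoa and fluoxetine male 1 for Htr1a and Htr2a.

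Bdnf, the neurotrophin most often linked to antidepressants, had 612 ± 93.6 normalised counts on vehicle and 698 ± 107 on fluoxetine (SD, n = 6 each), a log2 difference of 0.19 ± 0.16 with a limma adjusted p of 0.983. Of 20 tested neurotrophin and CREB pathway genes 10 were higher, with a median of 0.01 whose sign turned on leaving out any of 4 libraries. At an unadjusted p under 0.05, 2 were higher, against 2.66% of all genes. They were Creb1 (0.19 ± 0.07) and the prohormone convertase gene Pcsk1 (0.21 ± 0.09). Immediate early genes, which neurons switch on within minutes of activity, went in opposite directions, with 13 of 22 higher. Nr4a3 measured 702, 743 and 735 normalised counts in vehicle females and 562, 498 and 645 in vehicle males. On fluoxetine it measured 924.1, 1025 and 1343 in females and 1050, 1056 and 897 in males, so the arms did not overlap. The log2 difference was 0.70 ± 0.16 with a limma adjusted p of 0.347 and a DESeq2 adjusted p of 0.0229. In contrast Btg2 differed by -0.86 ± 0.25 and Npas4 by -0.84 ± 0.31, with all 6 fluoxetine libraries below the vehicle mean in each, and neither was called. Ccn1, an inducible gene for a secreted matrix protein outside the list, had 215 ± 73.5 on vehicle and 112 ± 50.6 on fluoxetine, with overlap.

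Further genes among those with the smallest p had modest differences. Spred2, an inhibitor of RAS-ERK signalling, had 2553 ± 204 normalised counts on vehicle and 3040 ± 127 on fluoxetine (SD, n = 6 each), a log2 difference of 0.25 ± 0.05 with a limma adjusted p of 0.343. The corepressor gene Bcor differed by 0.25 ± 0.06 with fluoxetine male 3 inside the vehicle range, the pseudokinase gene Trib2 by 0.32 ± 0.08 and the efflux transporter gene Abcc4 by 0.23 ± 0.06. Naa38, part of an N-terminal acetyltransferase, had 600.5 ± 71.5 on vehicle and 481 ± 15.5 on fluoxetine. Lst1 and Cd209c, genes of leukocytes, were low in all libraries, at 29.6 ± 1.68 and 22.8 ± 1.70 on vehicle and 20.3 ± 2.65 and 14.2 ± 2.11 on fluoxetine, without overlap. None of these was called by limma, although DESeq2 called Spred2 and Naa38.

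Synaptic and cell identity genes showed no called difference. Of 22 glutamate receptor genes 11 were higher, with a median of 0.00, of 13 tested GABA-A receptor genes 5 were higher, with a median of -0.04, and of 22 presynaptic release genes 8 were higher, with a median of -0.03. None of these genes had an unadjusted p under 0.05, and neither did any of 18 interneuron, 16 cortical layer or 24 cholesterol synthesis genes. Astrocyte markers were higher in 11 of 14 (median 0.09), with summed levels of 173492 to 197930 on vehicle and 183623 to 194700 on fluoxetine. Microglial markers were lower in 10 of 14 (median -0.04), and myelin markers were lower in 11 of 12 (median -0.09, or 0.10 without vehicle female 1 and vehicle male 1). In bulk tissue, fewer cells of a type and less RNA per cell cannot be told apart.

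Markers of neighbouring tissue differed between the arms as well. All 15 tested olfactory bulb markers were higher on fluoxetine, with a median of 0.60 (females 0.95, males 0.20), and all 13 tested striatal markers were lower, with a median of -0.39. None of these bulb and striatal genes had an unadjusted p under 0.05, and 3 of 6 fluoxetine libraries lay above and 3 below the vehicle mean of the bulb score. Single libraries set these values. The bulb median ran from -0.003 without fluoxetine male 1 to 1.31 without vehicle female 2, and the striatal median from -0.66 without vehicle male 3 to 0.08 without vehicle male 1. Without vehicle female 1 and vehicle male 1 they were 0.16 and 0.10. All 10 meningeal markers were higher, with a median of 0.21. It was 0.17 without the 4 libraries highest in bulb markers, 0.09 with the bulb score in the fit and 0.09 without vehicle female 1 and vehicle male 1, and it ran from 0.04 without fluoxetine male 1 to 0.36 without vehicle female 2. In the meningeal score 3 of 6 fluoxetine libraries lay above the vehicle mean and 3 below. The part of dissection in the other results was not tested, but they were computed again with those libraries left out or with the bulb score in the fit. With the score as a covariate P4ha1 differed by 0.32, Ndufs3 by -0.23, Per2 by 0.45 and Spred2 by 0.28 (log2), and these 4 genes were called by limma, 0.0238% of those tested (0.0178% higher and 0.00594% lower). Without the 4 libraries highest in bulb markers the complex I median was -0.19, the clock repressor median 0.13 and the chaperone median 0.07, and no gene was called in what were then 4 against 4 libraries. That fit did not even out the dissections, as its bulb median was 0.83 and its striatal median -0.45. Fluoxetine female 3, at 25075 summed normalised counts of bulb markers, stayed in it. Without vehicle female 1 and vehicle male 1 the complex I median was -0.09, that of complex IV -0.09, that of clock repressors 0.11 and that of chaperones 0.07, and again no gene was called.

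With 3 libraries per sex and arm, no difference between the sexes was called. The limma test of the male minus the female effect called 0 of 16825 genes (0%). There 180 genes (1.07%) had an unadjusted p under 0.05, 0.571% with the higher value in males and 0.499% with the lower, and edgeR and DESeq2 called 0 as well. The smallest p there belonged to Ncf1, a subunit of the phagocyte oxidase, at -0.33 ± 0.11 in females and 0.43 ± 0.11 in males (log2, SE). Col6a4, a collagen VI chain, followed at -0.66 ± 0.48 in females and 2.12 ± 0.48 in males. Within females limma called 0 genes, and 500 (2.97%; 1.4% higher, 1.57% lower) reached an unadjusted p under 0.05. Within males it called 0, and 556 (3.3%; 1.63% higher, 1.67% lower) reached it, while DESeq2 called 2 in each sex. The complex I median was -0.12 in both females and males, and that of clock repressors 0.12 and 0.11. For microglial markers the female median was -0.11 and the male median 0.09, a difference that was not tested. The median SE was 0.10 (log2) for the effect over both sexes, 0.15 within 1 sex and 0.21 for the difference between them.

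**Figure D5:**
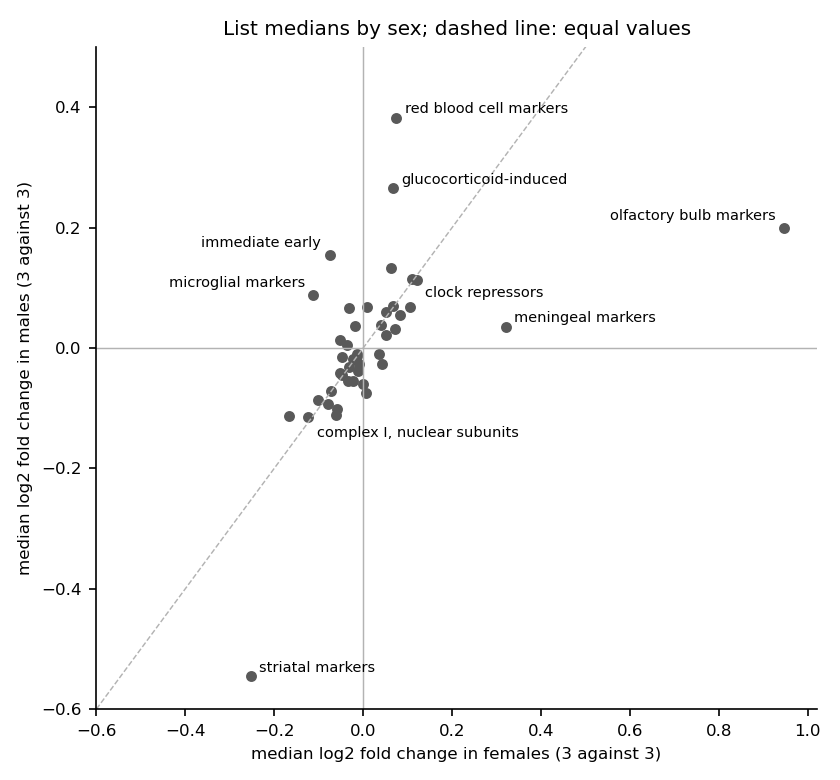
Median log2 fold change (fluoxetine minus vehicle) of each of the 44 gene lists in females (x axis) and males (y axis), 3 against 3 libraries each, with a dashed line where both are equal. Complex I lies at -0.12 in both and clock repressors at 0.12 and 0.11, near the line, while olfactory bulb markers lie at 0.95 and 0.20.

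The levels in the other arms are given side by side without a test, since they share the vehicle libraries and all lithium libraries belong to batch P40_L2. P4ha1 had a mean of 1053 normalised counts in wild-type mice on vehicle and 976 in heterozygotes on lithium, both between the means of 928 on vehicle and 1153 on fluoxetine. Ndufs3 had 2237 and 2303, nearer to 2326 on vehicle than to 1981 on fluoxetine. Per2 had 1550 in wild type and 1606 on lithium, against 1477 on vehicle and 1991 on fluoxetine. Nr4a3 had 1001 and 969, nearer to the fluoxetine mean of 1049 than to the vehicle mean of 647.5. Klf11 had 201 and 205, between 222 on vehicle and 177 on fluoxetine. Cox7b had 3469 and 3656, nearer to 3640 on vehicle than to 3041 on fluoxetine.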

How the data were processed

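Poly(A) RNA of mouse prefrontal cortex was sequenced with a stranded Illumina kit, per the labels' protocols. The authors deposited 1 table of normalised counts (a signal: gene counts divided by library size factors) for 18240 genes, and the submitters' processing notes name Salmon 0.11.2, R 3.6.0, DESeq2 1.19.11 and GRCm38. Every value was a whole number of reads within 0.01 once multiplied by the library's factor, so the reads could be recovered. Genes with a mean of at least 10 over 24 libraries (16825) were tested on log2(value + 1) with limma 3.58.1 in R 4.3.3, its prior variance following the mean level. This scale understates changes of low genes. The fit held 8 means, arm by sex, and p-values were Benjamini-Hochberg adjusted over all genes. edgeR 4.0.16 and DESeq2 1.42.0 on the recovered reads were alternatives. The script was tested on simulated data of 24 libraries and 16825 genes, 6 against 6 in this contrast, with noise drawn independently for each gene. Of genes changed 1.25-fold 16.4% were called, of those changed 1.5-fold 52.2% and of those changed 2-fold 80.3%. There were 7 false calls, and 1 gene was called where nothing had been changed. Dissection differences shared by many genes were not simulated, so these rates may not hold for the libraries here. Libraries of 1 group differed by more than sampling noise (chi-square per gene at least 5.65, noise 1). Gene identity follows GENCODE M21, which matched 18227 IDs. Members of the 44 lists, and the comparison itself, were chosen with earlier results of these data known. Named genes are those called by any tool over both sexes, the 12 with the smallest p in each direction and up to 5 per list by p. The 6 with the smallest p for the sex difference were added. So were the 5 largest changes in each direction among genes with a mean of at least 100. Dyrk1a, Slc6a4 (not analysed here), Htr1a, Htr2a, Bdnf and Maoa complete the set. Ibsp and Ddx3y, called within females, are outside it.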

Additional observations from a re-analysis of the deposited data

Results flagged for a closer look

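Of 178 combinations of a named gene and an arm, 19 had 1 library far from the other 5 by Dixon's criterion for 6 values, which flags about 1 group in 20 by chance. In the vehicle arm vehicle male 1 was the library that stood apart for Ndufa1 at 1818 normalised counts, Ndufa3 at 1718, Rpl36a at 2044, Rpl38 at 2744, Pde10a at 7853 and Scn4b at 10133, each the highest of its arm. Vehicle male 3 was highest for Uqcrh at 3728 and for the activity-regulated factor gene Npas4 at 1835, and vehicle female 1 for Gm28438, a nuclear copy of mt-Nd3, at 20091. In the fluoxetine arm fluoxetine male 1 was highest for Klf4 at 361 and Dnajb5 at 6768. Fluoxetine male 3 was lowest for Bcor at 978 and Hspa5 at 4992 and highest for the pericyte channel gene Kcnj8 at 122. Fluoxetine female 3, of batch P40_L2, was highest for Nr4a3 at 1343. Fluoxetine female 2 was lowest for Trib2 at 1063, fluoxetine female 1 lowest for Naa38 at 451 and highest for Timp1 at 41.7, and fluoxetine male 2 highest for Cox5b at 5181.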

How the results depend on the processing

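The count of 2 called genes was 2 with a pseudocount of 5, without the filter on low values, with a mean of at least 50, with TMM factors and with edgeR. It was 16 with DESeq2 and 1 with a batch term (Ndufs3). Fluoxetine female 3 alone sets that term, so that fit amounts to leaving this library out. The count was 0 with only batch P40_L1 (5 against 6 libraries) and 0 with only the 12 libraries and sex as a block. It was 0 to 2 when each library was left out in turn. In those last fits it was 0 without fluoxetine female 1, fluoxetine female 2, vehicle female 1 or any fluoxetine male, 2 without vehicle male 3, and 1 without any other library: P4ha1 without vehicle female 3 or vehicle male 2, Ndufs3 without fluoxetine female 3, Naa38 without vehicle female 2 and Zfp667 without vehicle male 1. With a replicate block it was 0. Deviations from the group means correlated at r = -0.70 to 0.27 between same-numbered libraries of the 2 arms. The highest r within a sex, 0.67, joined fluoxetine male 1 and vehicle male 3, both rich in bulb markers. Since dissection can mask a pairing, this check cannot tell whether the numbers pair the libraries. Chosen after seeing the data were the bulb score as a covariate, which gave 4, leaving out the 4 bulb-rich libraries, which gave 0, and leaving out vehicle female 1 and vehicle male 1, which gave 0. Within females the count of 0 became 2 with DESeq2, Ndufs3 and Ibsp, the latter at a log2 difference of 5.17. It became 0 to 1 when each library was left out. The 1 was the Y-linked gene Ddx3y at -0.98 (log2), without fluoxetine female 1. Within males the count of 0 became 2 with DESeq2 and 1 without vehicle female 1 and vehicle male 1. The cause was not tested. The difference between the sexes gave 0 in all of these settings. Of 89 named genes 3 changed sign: Maoa was -0.019 without vehicle female 1 and vehicle male 1, and it ran from -0.00171 (without vehicle male 1) to 0.0574 when each library was left out. Htr1a ran from -0.375 to 0.00364 and Htr2a from -0.197 to 0.0126 (log2), each highest without fluoxetine male 1. Of 44 list medians 24 kept their sign when each library was left out and 20 did not, among them those of serotonin, mitochondrially encoded, bulb, striatal, myelin and synaptic genes. In 13 of 1100 values, over 4 lists (TCA cycle, clock activators, neurotrophins, lysosome), the median moved by more than the spread between libraries. The median SE was 0.10 (log2) at 6 against 6 libraries, which limits what could be called.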

Other observations

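Perineuronal net and vascular genes held few differences. Of 14 tested perineuronal net genes 10 were higher on fluoxetine with a median of 0.09 (0.02 once the bulb score was in the fit), and only Timp1, an inhibitor of matrix proteases, had an unadjusted p under 0.05. Timp1 was low, at 7.76 ± 3.52 normalised counts on vehicle and 16.4 ± 12.9 on fluoxetine (SD, n = 6 each). Of 14 endothelial and pericyte markers 9 were lower with a median of -0.02, the glucose transporter Slc2a1 being higher (0.35 ± 0.09) and the pericyte potassium channel Kcnj8 lower (-0.28 ± 0.10) at an unadjusted p under 0.05, with limma adjusted p of 0.546 and 0.68. Of 14 calcineurin, RCAN and NFAT genes 6 were higher, and 0 had an unadjusted p under 0.05. Of 29 lysosomal genes 18 were higher, and 1 was lower at an unadjusted p under 0.05, a share near that of all genes. For each of these lists the shares over all genes at that threshold were 2.66% higher and 3.05% lower.

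The pseudogene Eif4a-ps4 was listed at 0 in 4 of 6 vehicle libraries and at 539 and 1322 in the other two, while the fluoxetine libraries ran from 372 to 952. It is a copy of an expressed gene, so its values are uncertain.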
